A study of Mus musculus with 3 samples.

Results

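Mecom, Hlf, Mllt3, Tcf15 and Nkx2-3 are 5 transcription regulators of blood stem cells, taken here by gene symbol from the 32285 genes counted in 3 single-cell libraries of mouse bone marrow. All 5 symbols were found once in every library. In GRCm38, Mecom (ENSMUSG00000027684) lies on chromosome 3 from 29951296 to 30548008 on the minus strand. Hlf (ENSMUSG00000003949) spans 90336536 to 90390895 of chromosome 11, minus strand. Mllt3 (ENSMUSG00000028496) spans 87769925 to 88033364 of chromosome 4, minus strand. Tcf15 (ENSMUSG00000068079) covers 152143561 to 152149097 on chromosome 2, plus strand. Nkx2-3 (ENSMUSG00000044220) covers 43612325 to 43615892 on chromosome 19, plus strand.

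Marrow from 4 sites (femora, tibiae, hips and spines) was sorted into the gates LSK, LK and TBM, and each gate became 1 droplet library of transcript 3' ends. LSK stands for lineage-negative cells with Sca-1 and Kit on their surface, LK for lineage-negative cells with Kit, and TBM for total bone marrow. The lineage cocktail used to enrich negative cells held antibodies to Ter119, CD11b, Ly-6G, Ly-6C, CD45R, CD5 and CD8a. No genotype, strain, treatment, age, sex or number of mice is stated, nor whether Sca-1 positive cells were kept out of the LK gate.

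The 5 genes belong to different protein families. Mecom encodes a zinc finger protein (its locus includes Evi1) that is needed to keep stem cells in adult marrow, and Hlf encodes a PAR basic leucine zipper factor known as a marker and a guardian of quiescent stem cells. Mllt3 encodes AF9, a YEATS domain reader of acylated histones that recruits Dot1l and the super elongation complex, and it is used both in stem cells and in the erythroid and megakaryocyte lineages. Tcf15 encodes a basic helix-loop-helix factor first known from the early mesoderm, and Nkx2-3 encodes a homeobox factor known from the spleen and gut vasculature; both are also expressed in stem cells.

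For 4 of the genes, the sequence just upstream of a start site was taken from RefSeq (build GRCm38.p6), shown because the 5 genes are compared below for shared and separate patterns of expression. The windows are 250 bases each, written 5' to 3' on the gene's strand, and Tcf15 had no entry among the sequences used. Capitals mark matches on either strand to 4 motifs: GATAA (the core bound by GATA factors), GGAAG (an ETS core), GGGCGG (an Sp or Klf box) and TGACGTCA (a cAMP response element). Overlapping matches are joined in 1 run of capitals.
Mecom, chr3:30509760-30510009, minus strand: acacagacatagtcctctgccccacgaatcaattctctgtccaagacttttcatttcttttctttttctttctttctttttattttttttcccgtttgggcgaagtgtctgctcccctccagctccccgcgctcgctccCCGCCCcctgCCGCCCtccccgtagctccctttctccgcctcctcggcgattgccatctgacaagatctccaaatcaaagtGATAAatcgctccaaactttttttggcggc
Hlf, chr11:90390918-90391167, minus strand: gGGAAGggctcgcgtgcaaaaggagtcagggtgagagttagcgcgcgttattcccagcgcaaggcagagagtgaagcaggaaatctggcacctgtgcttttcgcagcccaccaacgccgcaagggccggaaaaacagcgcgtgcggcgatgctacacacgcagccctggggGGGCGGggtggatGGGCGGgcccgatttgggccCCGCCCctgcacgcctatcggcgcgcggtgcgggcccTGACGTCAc
Mllt3, chr4:88033408-88033657, minus strand: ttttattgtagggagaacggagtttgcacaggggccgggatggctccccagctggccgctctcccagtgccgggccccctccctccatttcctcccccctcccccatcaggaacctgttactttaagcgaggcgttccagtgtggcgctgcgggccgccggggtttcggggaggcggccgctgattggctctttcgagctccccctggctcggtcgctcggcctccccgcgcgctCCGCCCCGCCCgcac
Nkx2-3, chr19:43612075-43612324, plus strand: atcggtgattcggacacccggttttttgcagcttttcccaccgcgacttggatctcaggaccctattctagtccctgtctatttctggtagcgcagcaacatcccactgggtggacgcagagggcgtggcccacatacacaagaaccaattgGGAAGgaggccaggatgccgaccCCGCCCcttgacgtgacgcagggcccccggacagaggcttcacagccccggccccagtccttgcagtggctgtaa
The Mecom window held 1 GATAA match and 2 of GGGCGG. A second Mecom start site also had 1 GATAA match, with 1 of GGAAG and 0 of GGGCGG. The Hlf window held 3 GGGCGG matches, 1 of GGAAG and, at its downstream end, 1 of TGACGTCA. GGGCGG was matched 2 times in the Mllt3 window and 1 time in that of Nkx2-3, which also had 1 GGAAG. A second Mllt3 start site had 0 matches to each of the 4 motifs. Over 32851 RefSeq windows of the same length, 22.6% held GATAA, 64.1% GGAAG, 32.7% GGGCGG and 1.55% TGACGTCA. A match is a description of the letters only.

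After filters, the libraries held 1067 LSK, 3461 LK and 4217 TBM cells. Their totals were 11836820, 49936180 and 21958139 UMIs (unique molecular identifiers, each a counted transcript), and the median cell had 9688, 13683 and 3347. The study states 1070, 3441 and 3984 cells. Between 6 and 25 barcodes were shared by any pair of libraries. With 1 library per gate there is no replicate, so no test between gates was made, and the 95% intervals given throughout cover counting error alone. The gates met their labels in that 7 stem cell markers summed to 495 CPM (a gene's UMIs per 1e6 UMIs) in LSK, 88.9 in LK and 39.1 in TBM. Neutrophil markers ran the other way, from 17.3 CPM in LSK to 163399 in TBM. Of 4 defining endothelial markers (Cdh5, Kdr, Plvap, Stab2), no cell in any library had 2 or more, and Cdh5 had 0 UMIs in LSK. A wider list of 8 endothelial and stromal markers was highest in the LSK library, with 417 UMIs or 35.2 CPM. Of these, 377 UMIs were of Emcn, which is also listed below among the surface genes of stem cells. LK reached 7.75 CPM for that list (387 UMIs, 225 of them Emcn) and TBM 2.96. Which cells gave these UMIs was not tested. In summed libraries, fewer cells with a transcript and less transcript per cell cannot be told apart, so the levels are followed by the shares of cells.

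All 5 genes were most abundant in LSK. Mecom stood at 74.9 CPM in LSK (70.0 to 79.9), 3.80 in LK (3.28 to 4.39) and 0.774 in TBM (0.451 to 1.24), from 886, 190 and 17 UMIs. Hlf stood at 106 CPM (100.2 to 112), 11.3 (10.4 to 12.3) and 1.82 (1.30 to 2.48). Tcf15 was at 26.0 CPM (23.2 to 29.1), 2.32 (1.92 to 2.79) and 0.501 (0.2501 to 0.896). Nkx2-3, on the same scale, was at 33.1 CPM (29.9 to 36.6), 1.84 (1.49 to 2.26) and 0.501 (0.2501 to 0.896). For these 4 genes the 3 libraries were ordered LSK, LK, TBM with no overlap of intervals. Mllt3 was the exception, at 58.3 CPM in LSK (54.0 to 62.8), 10.9 in LK (9.96 to 11.8) and 13.4 in TBM (11.9 to 15.01).

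**Figure D1:**
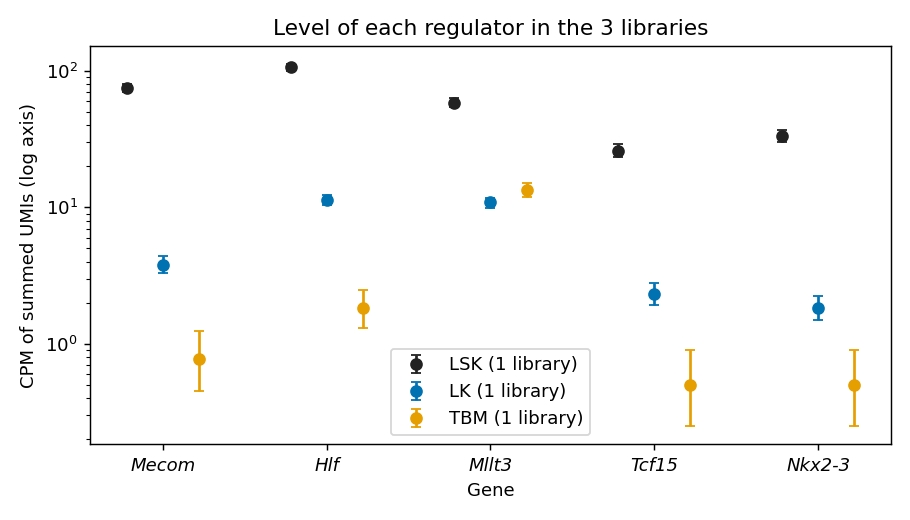
Level of each regulator (CPM of summed UMIs, log axis) in the LSK, LK and TBM libraries, 1 point per library with its 95% counting interval. Mecom, Hlf, Tcf15 and Nkx2-3 step down from LSK to LK to TBM, while Mllt3 is at 10.9 CPM in LK and 13.4 in TBM.

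The step from LSK to LK was at least 2-fold for 5 of 5 genes, a step passed by 19.9% of the 13016 genes with enough UMIs, with 3.73% at least 2-fold lower. The log2 ratio of LSK over LK was smallest for Mllt3, at 2.43 (2.26 to 2.59), and its interval lay below those of the other 4 genes. The next step separated Mllt3 from the rest. LK over TBM was a log2 ratio of 2.30 (1.58 to 3.11) for Mecom, 2.63 (2.17 to 3.13) for Hlf, 2.21 (1.32 to 3.25) for Tcf15 and 1.88 (0.97 to 2.93) for Nkx2-3, but -0.30 (-0.51 to -0.09) for Mllt3. From LSK to TBM, Mecom was 96.7-fold lower in total marrow and Mllt3 4.35-fold lower.

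The shares of cells in which a gene was seen followed the same steps from LSK to LK. Without adjustment for depth, at least 1 UMI was seen in 51.8% of LSK cells for Mecom, 60.3% for Hlf, 34.0% for Mllt3, 21.6% for Tcf15 and 24.8% for Nkx2-3. In LK the shares were 4.80%, 11.99%, 11.4%, 2.74% and 2.08%. In TBM, whose cells were shallower, they were 0.261%, 0.806%, 4.36%, 0.237% and 0.166%. With every cell randomly thinned to 2000 UMIs (all 1067 LSK, 3452 LK and 2929 TBM cells had that depth), Mecom was seen in 16.6% of LSK cells (14.4% to 19.0%), 1.33% of LK (0.977% to 1.77%) and 0.0683% of TBM. Hlf was then seen in 19.7%, 2.95% and 0.376%, Tcf15 in 5.53%, 0.579% and 0.0341%, and Nkx2-3 in 7.69%, 0.753% and 0.0683%. Mllt3 was seen in 11.6%, 2.61% and 1.84%. Its thinned share was lower in TBM than in LK while its CPM was higher, so no order of LK and TBM is read for it.

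Neutrophil-like cells, which are not known to express these genes, were taken as a comparison for the low TBM values. In 1522 such TBM cells (median 3259 UMIs), Mecom and Nkx2-3 had 0 UMIs (up to 0.510 CPM), Tcf15 had 1 and Mllt3 had 6 (0.830 CPM). Hlf had 14 UMIs there, or 1.94 CPM (1.06 to 3.25), in 0.920% of the cells. The Hlf level and share of TBM as a whole (1.82 CPM, 0.806% of cells, median 3347 UMIs) were not above these values. Mllt3 at 13.4 CPM in TBM was above its own level in neutrophil-like cells. Hlf thus had more UMIs there than Mllt3, though TBM as a whole held 40 of Hlf and 294 of Mllt3, and the source of the UMIs in neutrophil-like cells was not tested.

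How many of the genes did a single cell carry? Among 1042 LSK cells thinned to 5000 UMIs, 321 had none of the 5, 344 had 1, 233 had 2, 100 had 3, 33 had 4 and 11 had all 5. Thus 36.2% of LSK cells (33.3% to 39.2%) had at least 2 of the genes, against 2.11% (1.64% to 2.67%) of 3220 LK cells at the same depth. Without thinning, the shares with at least 2 were 60.8% of LSK and 5.23% of LK cells.

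All 10 pairs were seen in the same LSK cell more often than the product of their single shares, by factors from 1.14 to 2.02. Mllt3 with Tcf15 had the largest factor, with both genes in 64 cells (6.14%, 4.76% to 7.78%) where the product is 3.04%. Mllt3 with Nkx2-3 followed at 6.81% (5.36% to 8.52%) against 3.52%, a factor of 1.94. Mecom with Mllt3 was seen in 11.3% of cells (9.46% to 13.4%) against 7.43%, a factor of 1.52. So Tcf15 was seen in 27.1% (21.6% to 33.3%) of Mllt3 positive and 9.43% (7.50% to 11.7%) of Mllt3 negative LSK cells, and Nkx2-3 in 30.1% against 11.3%.

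The 4 pairs with Hlf had factors of 1.14 to 1.26. Hlf with Mllt3 had the smallest factor, 10.4% (8.58% to 12.4%) against 9.06%, and the product lay within the interval. The same held for Mecom with Tcf15, Hlf with Tcf15 and Tcf15 with Nkx2-3, so in 6 of 10 pairs the product was below the interval of the observed share. In LK the factors ran from 2.22 (Hlf with Mllt3, 25 cells) to 9.20 (Tcf15 with Nkx2-3, 4 cells), from few cells.

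Some stem cell surface genes, which were not used to sort the cells into these classes, were higher in LSK cells with more of the 5 genes. At 0, 1, 2 and at least 3 genes seen, Procr (the protein C receptor, a marker of stem cells) stood at 39.9, 62.8, 89.3 and 158 CPM (130.6 to 190.2 in the last class, 144 cells). The adhesion gene Esam went from 34.3 to 59.3, 63.5 and 117 CPM. Vwf, von Willebrand factor, was at 4.36, 3.49 and 6.87 CPM in the first 3 classes and at 38.9 (25.8 to 56.2) in the last. Tek, the angiopoietin receptor of the same list, did not follow, at 8.72, 8.14, 8.58 and 6.94 CPM (2.25 to 16.2 in the last).

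Genes of more advanced progenitors ran the other way in the same cells. Cd48, a surface protein of progenitors that stem cells lack, went from 185 to 120, 71.2 and 15.3 CPM (7.63 to 27.3 in the last). Flt3 stood at 131, 105, 88.4 and 36.1 CPM. Dntt, the lymphoid terminal transferase, stood at 247, 75.6, 24.9 and 6.94 CPM. Cd34, which marks progenitors and is low in the long-term stem cells of adult mice, was at 497, 511, 427 and 198.6 CPM.

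Cells with a regulator were less often seen with division genes. Mki67 or Top2a was seen in 39.6% (34.2% to 45.1%) of LSK cells with none of the 5 genes, in 27.3% with 1, 28.3% with 2 and 16.7% (10.98% to 23.8%) with at least 3. For Mecom the shares were 22.8% (18.5% to 27.6%) in cells with it and 33.3% (29.8% to 36.9%) in cells without. For Mllt3 they were 20.8% (15.8% to 26.5%) and 32.5% (29.3% to 35.9%), and for Nkx2-3 19.8% (13.9% to 26.7%) and 31.7% (28.6% to 34.9%). For Hlf, 26.1% (22.0% to 30.6%) against 32.3% (28.7% to 36.1%), and for Tcf15, 25.0% (18.1% to 33.0%) against 30.6% (27.6% to 33.7%), the intervals overlapped.

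Next, each gene was followed in cells that carry a marker of a lineage branch: Flt3 (a cytokine receptor of lymphoid and myeloid multipotent progenitors), Pf4 (a platelet granule chemokine), Car1 (carbonic anhydrase of erythroid progenitors) or at least 50 UMIs of Elane (neutrophil elastase). The other markers needed 1 UMI, and a cell could carry several: 83 LSK cells had both Flt3 and Pf4, and 183 LK cells both Flt3 and Elane. The reference was the cells of the same library with none of the 4 markers (368 in LSK, 809 in LK), so comparisons within a library share these cells and are given side by side.

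Flt3 divided the 5 genes. In the 511 LSK cells with Flt3 (median 10796 UMIs, against 8360 in the reference), Hlf was at 99.5 CPM against 127, a log2 ratio of -0.35 (-0.53 to -0.17). Mecom was at 56.6 against 104 (-0.88, -1.09 to -0.66), and Nkx2-3 at 21.5 against 49.5 (-1.20, -1.54 to -0.87). Tcf15 was at 13.9 CPM against 42.4 (-1.61, -2.01 to -1.22), and Mllt3 at 25.7 against 102 (-1.98, -2.26 to -1.71). Hlf thus differed least and Mllt3 most, and 3 of 5 genes were at least 2-fold lower, where 3.34% of all genes were at least 2-fold lower and 1.7% higher. By share of cells at 5000 UMIs, Hlf was seen in 38.9% of Flt3 cells against 45.5%, Mecom in 23.7% against 46.0%, Nkx2-3 in 11.2% against 19.5%, Mllt3 in 13.6% against 33.1% and Tcf15 in 6.31% against 20.1%. Hlf again differed least in proportion, but Tcf15 rather than Mllt3 differed most.

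The Flt3 pattern was graded in LSK. At 0, 1, 2 to 3 and at least 4 Flt3 UMIs (556, 224, 177 and 110 cells), Hlf was at 113, 113, 110 and 62.5 CPM. Mllt3 was at 93.9, 35.0, 24.9 and 11.2 CPM in the same classes, and Tcf15 at 39.2, 22.2, 11.5 and 3.29. Hlf therefore lay within its error up to 3 Flt3 UMIs, while Mllt3 was already lower at 1. Mecom was at 94.8, 61.8, 63.7 and 38.2 CPM, and Nkx2-3 at 45.8, 18.7, 28.7 and 16.5. Median depth went from 8770.5 to 13389.5 UMIs over these classes, and its part in the gradient was not tested.

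In LK the 834 Flt3 cells (median 14312 UMIs, against 9149 in the reference) gave the same split when set against that reference. Mecom was at 5.58 CPM against 6.68 (log2 -0.26, -0.79 to 0.28) and Hlf at 18.2 against 23.9 (-0.39, -0.68 to -0.11). Mllt3 was at 6.38 CPM against 16.2 (-1.34, -1.76 to -0.93), Tcf15 at 1.28 against 4.21 (-1.72, -2.68 to -0.82) and Nkx2-3 at 1.83 against 5.57 (-1.60, -2.39 to -0.85). The 3 latter genes were at least 2-fold lower, as were 3.43% of all genes, with 1.67% higher. In Flt3 cells that carried none of the other markers, Hlf was at -0.029 (-0.33 to 0.28). Between 0 and 1 Flt3 UMIs, with cells of the other markers in both classes, Hlf and Mecom were instead higher. Hlf went from 8.98 to 19.7 CPM, with 16.5 at 2 to 3 UMIs. Mecom went from 3.21 to 5.72 CPM, with 5.98 at 2 to 3 and 3.34 at 4 or more. Mllt3 went from 12.4 to 7.40 CPM and Tcf15 from 2.67 to 1.54. Nkx2-3, at 1.84 and 2.09 CPM, had overlapping intervals.

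**Figure D2:**
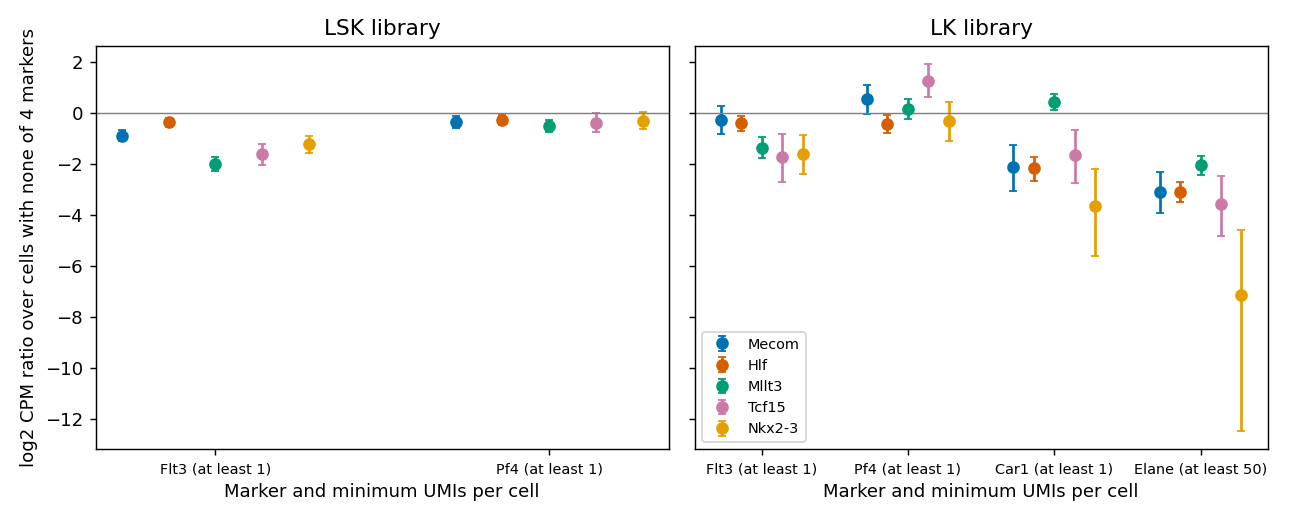
Log2 ratio of CPM in cells with a marker over cells of the same library with none of the 4 markers, for LSK (Flt3 and Pf4) and LK (Flt3, Pf4, Car1 and Elane), with 95% counting intervals. Hlf lies nearest to 0 in LSK Flt3 cells (-0.35), Tcf15 is highest in LK Pf4 cells (1.27), and Mllt3 is the only gene above 0 in LK Car1 cells (0.45).

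Pf4 cells of LSK differed from the reference by less than 2-fold for each gene. In these 261 cells (median 9860 UMIs), Mecom was at 82.2 CPM (log2 -0.34, -0.58 to -0.10), Hlf at 107 (-0.25, -0.46 to -0.04) and Mllt3 at 72.2 (-0.49, -0.74 to -0.24). Tcf15 was at 33.1 CPM (-0.36, -0.74 to 0.02) and Nkx2-3 at 40.8 (-0.28, -0.62 to 0.06). None of the 5 genes was 2-fold higher or lower, where 0.793% of all genes were at least 2-fold higher and 1.62% lower. The reference has no Flt3 cells, whereas 83 of the 261 Pf4 cells carried Flt3. In the 173 cells with Pf4 alone, Mecom was at -0.22 (-0.50 to 0.05), Hlf at -0.32 (-0.57 to -0.07) and Mllt3 at -0.14 (-0.42 to 0.12). From 0 to 1 to 9 Pf4 UMIs, with Flt3 cells in both classes, the direction was the other way. Mecom went from 72.4 to 85.1 CPM, Hlf from 106 to 111, Mllt3 from 53.6 to 72.5, Tcf15 from 23.6 to 33.6 and Nkx2-3 from 30.5 to 42.0.

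In LK, Tcf15 was higher in Pf4 cells. The 435 Pf4 cells (median 10478 UMIs) held 56 of the 116 LK UMIs of Tcf15, at 10.1 CPM against 4.21 in the reference (log2 1.27, 0.63 to 1.93). Against that reference it was the 1 gene of 5 at least 2-fold higher, as were 2% of all genes, with 1.59% lower. In the 36 LK cells with at least 50 Pf4 UMIs, Tcf15 was at 29.7 CPM (16.7 to 49.1) from 15 UMIs in 9 cells, with at most 4 in 1 cell. The same cells had 8 UMIs of Mllt3 in 8 cells (15.9 CPM, 6.85 to 31.3), close to the 16.2 CPM of the reference, with 1 UMI of Mecom, 4 of Hlf and 0 of Nkx2-3. Over all LK Pf4 cells Mecom was at 9.78 CPM (0.55, -0.02 to 1.12), Hlf at 17.9 (-0.41, -0.78 to -0.06), Mllt3 at 18.3 (0.17, -0.21 to 0.56) and Nkx2-3 at 4.53 (-0.30, -1.07 to 0.44). With at least 10 Pf4 UMIs (87 cells), Tcf15 was at 2.05 from 19 UMIs. Mecom was then at -0.87 from 4 UMIs (3.67 CPM, 0.999 to 9.39), an interval that holds the 6.68 CPM of the reference. In Pf4 cells with no other marker (266 cells), Mecom was at 1.25 and Tcf15 at 2.09. From 0 to 1 to 9 Pf4 UMIs, with cells of the other markers in both classes, each gene was higher. Mecom went from 3.06 to 11.3 CPM, Hlf from 10.5 to 20.3 and Mllt3 from 9.93 to 19.2. Tcf15 went from 1.35 to 8.35 CPM and Nkx2-3 from 1.51 to 5.19.

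Car1 cells of LK set Mllt3 apart. In 680 such cells (median 10104.5 UMIs), Mecom was at 1.56 CPM against 6.68 (log2 -2.09, -3.06 to -1.23) and Hlf at 5.36 against 23.9 (-2.15, -2.64 to -1.69). Tcf15 was at 1.34 CPM against 4.21 (-1.65, -2.73 to -0.66), and Nkx2-3 had 4 UMIs (-3.64, -5.58 to -2.18). Mllt3, by contrast, was at 22.1 CPM against 16.2 (0.45, 0.12 to 0.78). So 4 of 5 genes were at least 2-fold lower, where 5.53% of all genes were at least 2-fold lower and 2.95% higher.

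The direction for Mllt3 in Car1 cells depended on how cells were weighted, at -0.16 with equal weight for each cell. With the marker count the levels were graded. At 0, 1 to 9, 10 to 49 and at least 50 Car1 UMIs, Mllt3 was at 8.39, 9.14, 23.3 and 49.8 CPM. The last class held 117 Mllt3 UMIs in 57 of 100 cells (interval 41.2 to 59.6 CPM), and its median cell had 22168 UMIs against 7927 in the class before. Mecom had 0 UMIs in both upper classes (262 cells). Total marrow showed the same contrast, as 217 TBM cells with Car1 held 110 Mllt3 UMIs (49.2 CPM, 40.5 to 59.3) in 54 cells, 1 of Hlf, 2 of Tcf15 and 0 of Mecom and Nkx2-3.

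Among the LK marker classes, the Elane cells had the lowest level of each of the 5 genes. In 1223 LK cells with at least 50 Elane UMIs (median 20229 UMIs), Mecom was at 0.796 CPM (log2 -3.07, -3.89 to -2.31), Hlf at 2.83 (-3.08, -3.49 to -2.68) and Tcf15 at 0.358 (-3.55, -4.80 to -2.46). Mllt3 differed least, at 3.94 CPM (-2.04, -2.43 to -1.65). Nkx2-3 had 1 UMI (-7.13, -12.46 to -4.58). All 5 of 5 were at least 2-fold lower, where 12.2% of all genes were at least 2-fold lower and 3.85% higher.

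The step lay between low and intermediate Elane counts. At 0, 1 to 9 and 10 to 49 Elane UMIs (579, 1371 and 288 LK cells), Mecom was at 11.2, 7.51 and 0.634 CPM, Hlf at 31.0, 21.0 and 5.70, and Mllt3 at 25.0, 19.8 and 4.65. Median depth over these classes was 6975, 9981 and 16184.5 UMIs, and its part was not tested. In LSK the Car1 and Elane classes held 9 and 14 cells. The 9 Car1 cells had 3 UMIs of Mecom, 5 of Hlf, 2 of Mllt3, 1 of Tcf15 and 0 of Nkx2-3. The 14 Elane cells had 8, 11, 7, 3 and 1 in that order.

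**Figure D3:**
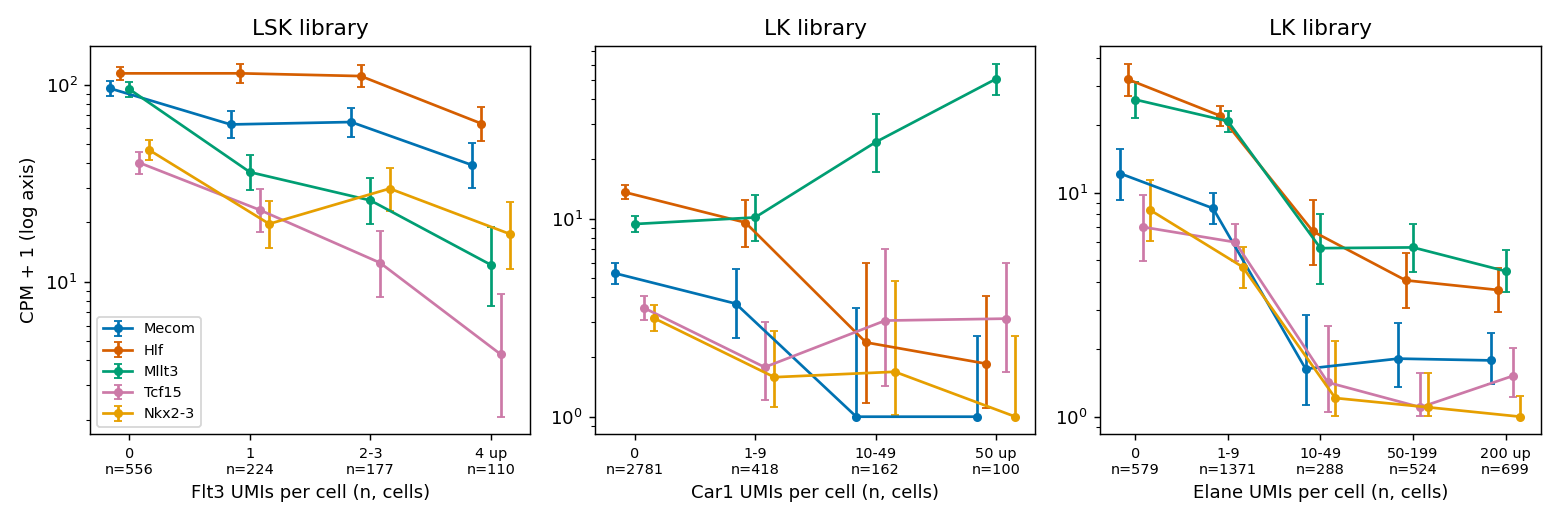
Level of each gene (CPM + 1, log axis, lines join the classes) in cells grouped by their UMIs of Flt3 (LSK), Car1 (LK) and Elane (LK), with 95% counting intervals and the number of cells under each class. Hlf is flat up to 3 Flt3 UMIs, Mllt3 reaches 49.8 CPM in cells with at least 50 Car1 UMIs, and all 5 genes are low from 10 Elane UMIs on.

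Cells with Procr but no Flt3, a phenotype near that of stem cells, were also examined. The 237 such cells among the 1067 of LSK, with 340 Mllt3 UMIs, had Mllt3 at 157 CPM (141 to 174), or 49.3% of the Mllt3 UMIs of LSK. They held 29.7% of the Mecom, 24.8% of the Hlf, 41.6% of the Tcf15 and 34.4% of the Nkx2-3 UMIs. The 105 such cells among the 3461 of LK had Nkx2-3 at 28.3 CPM (19.6 to 39.6), 37.0% of its LK UMIs, against 12.6% of those of Hlf.

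Clusters built from all libraries, without the 5 genes and the 4 lineage markers among the variable genes, gave a second view. A cluster with stem and multipotent progenitor markers (led by Myl10, Ctla2a and Procr; 716 LSK, 275 LK and 13 TBM cells) had the highest LSK level of each of the 5 genes among clusters of at least 30 cells. It held 74.5% of the Mecom, 69.1% of the Hlf, 84.6% of the Mllt3, 76.0% of the Tcf15 and 80.1% of the Nkx2-3 UMIs of LSK, in 67.1% of the cells. In LK, where it was 7.95% of cells, it held 40.0% of the Mecom, 36.2% of the Hlf, 39.7% of the Tcf15 and 63.0% of the Nkx2-3 UMIs, but 23.4% of those of Mllt3. With finer clusters the stem-like one held 37 LK cells, 1.07% of the library, and lower shares of UMIs. They were 9.47% for Mecom, 6.03% for Hlf, 12.9% for Mllt3, 8.62% for Tcf15 and 25.0% for Nkx2-3. The Mllt3 share was then not the lowest.

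Within that cluster, each gene was lower in LK than in LSK cells, with intervals that did not overlap. Mecom was at 103 CPM (95.2 to 111) in its LSK and 38.5 (30.4 to 48.2) in its LK cells. Hlf was at 135 CPM (126 to 145) against 103 (89.7 to 119), with median depths of 8442 and 6865 UMIs. In TBM only 13 cells fell into the cluster. They held 14 of the 17 Mecom UMIs of that library (82.4%), 10 of the 11 Nkx2-3 UMIs and 14 of the 40 Hlf UMIs (35.0%), but 22 of the 294 Mllt3 UMIs (7.48%).

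Apart from the stem-like cells, the highest Mllt3 levels among TBM clusters of at least 30 cells were in erythroid and lymphoid cells. Erythroblast-like cells led by Tmcc2 and Hba-a2 (123 cells, median 5980 UMIs) had 66 Mllt3 UMIs, 85.6 CPM (66.2 to 109), and 0 UMIs of the other 4 genes. A cluster with Rhd and Hemgn among its leading genes (276 cells) was at 38.7 CPM (31.3 to 47.4). T and NK cell-like cells were at 36.2 CPM (21.1 to 57.9) from 17 cells, and B cell-like cells led by Vpreb1 and Igll1 at 34.1 (17.0 to 61.1) from 8. Other erythroblast-like cells, with Hbb-bs and Hba-a1 among their leading genes (57 cells), had 3 UMIs, and 470 neutrophil-like cells led by Cstdc4 had 0. Monocyte-like TBM cells (415 cells) had 18 UMIs, 5.64 CPM (3.34 to 8.92). In LK, erythroid progenitor-like cells (71 cells led by Car1 and Mt2, median 26421 UMIs) had Mllt3 at 55.9 CPM (45.7 to 67.7) with 0 UMIs of Mecom and Nkx2-3.

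Lymphoid-primed-like LSK cells (53 cells led by Dntt and Flt3) had Hlf at 36.6 CPM (23.2 to 54.9), Mecom at 15.9 (7.63 to 29.3), Nkx2-3 at 12.7 (5.50 to 25.1) and Mllt3 at 11.1 (4.48 to 23.0). Tcf15 had 0 UMIs there (up to 5.87 CPM), against 36.5 CPM in the stem-like LSK cells. In the cluster led by Pf4, H1fx and Pimreg, 213 LSK cells had Hlf at 93.9 CPM (83.8 to 105) and Mecom at 54.9 (47.3 to 63.4), and 271 LK cells had them at 40.2 (33.8 to 47.5) and 12.2 (8.82 to 16.5). Mllt3 was at 22.1 CPM (17.4 to 27.8) in those LSK cells and 13.4 (9.81 to 17.9) in those LK cells.

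**Figure D4:**
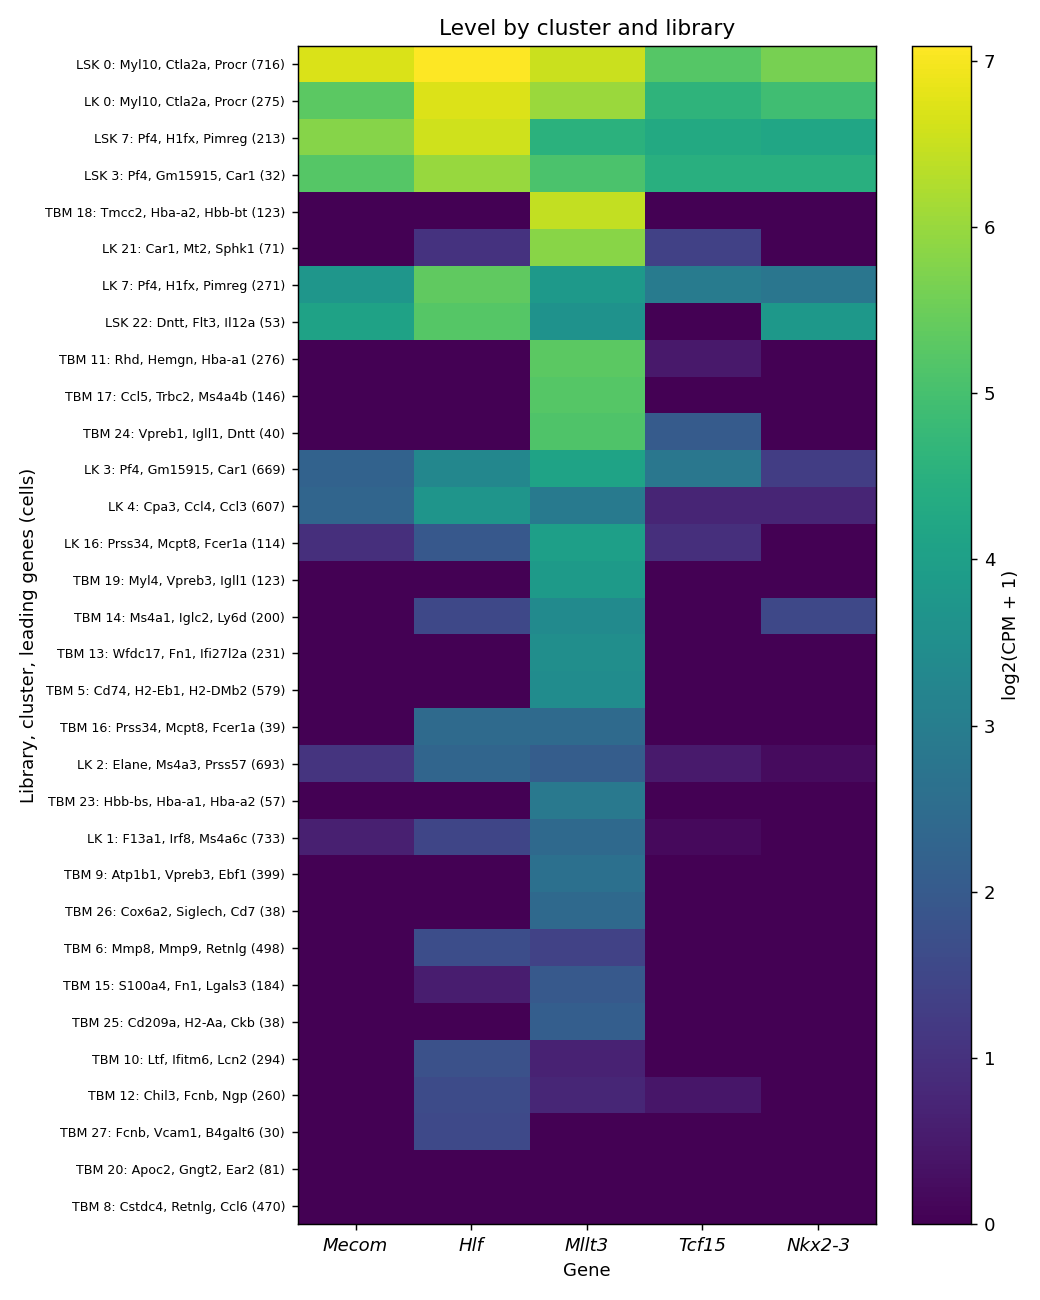
Level of each gene as log2(CPM + 1), by colour, in every cluster and library with at least 30 cells, each labelled with some of its leading genes and its number of cells. Rows are sorted by the summed CPM of Hlf and Mllt3, highest first, so the place of a row follows from these genes. Mecom, Hlf, Tcf15 and Nkx2-3 are bright in the stem-like rows and dark in most TBM rows, while Mllt3 is bright again in TBM erythroid, T and NK and early B cell rows.

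Across these 32 groups of cells, which share libraries and so are not independent, the pattern of Mllt3 was the least like the others. Its Pearson r of log2(CPM + 10) was 0.47 with Hlf, 0.52 with Mecom, 0.55 with Nkx2-3 and 0.60 with Tcf15, whereas the other 4 genes had r from 0.91 to 0.98 with each other. Of 10414 genes ranked, those most like Mecom were Bgn (r 0.98), Vldlr, Gm16140, Emcn and Fhl1. For Hlf they were Emcn (0.98), Vldlr, Gm16140, Hoxa10 and F11r. For Tcf15 they were Esam (0.99), Trpc6, Clec1a, Fhl1 and Bgn, and for Nkx2-3 Bdh2 (0.98), Vldlr, Clec1a, Procr and Emcn. The genes most like Mllt3 were Plaat3 (0.79), Prxl2a, Cabin1, Car2 and Mettl27, none of them shared with the other lists. Car2 encodes an erythroid carbonic anhydrase.

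Other regulators of stem cells were set beside the 5 genes. LSK exceeded LK at least 2-fold in 13 of 24, and 0 were lower, with a median log2 ratio of 1.15 against 0.34 over all genes. Hoxb5, a homeobox gene of long-term stem cells, was at 4.82 against 0.3004 CPM (log2 interval 3.16 to 4.93). Ndn, a growth suppressor, had a log2 ratio of 3.97 (3.26 to 4.74), Hoxa10 of 2.91 (2.67 to 3.15) and Gata3 of 2.85 (2.55 to 3.14). Of 12 surface genes used to subdivide stem and early progenitor cells, 10 were at least 2-fold higher and 0 lower, and Cd34 (0.78) and Cd48 (-0.70), both used as progenitor markers, were the other two. The 10 included Procr (3.91, 3.67 to 4.14), Esam (3.49, 3.27 to 3.71) and Emcn (2.82, 2.58 to 3.07). With size factors the median over all genes is 0 and every ratio drops by 0.34, so 13.1% of genes were at least 2-fold higher and 6.28% lower. The higher genes were then 67.7% of those past 2-fold, in place of 84.2%, and 1 gene of each list (Gfi1 and Cd48) was then at least 2-fold lower.

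Partners and relatives of the 5 genes had smaller ratios between the gates than the genes themselves. Their lists are short, and 19.9% of all genes passed 2-fold in the same direction, so nothing is read from the counts that follow. Of the PAR factors related to Hlf, Tef was higher in LSK (log2 1.41, 1.10 to 1.72), while Dbp was at 0.92 (0.69 to 1.16) and the repressor Nfil3 at -0.57 (-0.98 to -0.18). Of 16 elongation and Dot1l complex genes, 4 were at least 2-fold higher: Aff3 (1.28), Aff4 (1.12), Mllt6 (1.11) and Kmt2a (1.09). Of the bHLH partners and inhibitors of Tcf15, 3 of the 6 with enough UMIs passed, Id2 (1.27), Tcf4 (1.12) and Id3 (1.05), and Tcf12 was at 0.93. Of the Nkx2 relatives and Groucho corepressors, the Nkx2 genes had at most 1 UMI, and 2 of 4 Tle genes passed, Tle4 (1.18) and Tle1 (1.05). With size factors none of these elongation, bHLH or Tle genes was 2-fold higher. Prdm16, the close relative of Mecom, was at 3.89 against 0.941 CPM (2.05, 1.43 to 2.66), while its shared corepressors Ctbp1 (0.30), Ctbp2 (0.41) and Hdac1 (0.21) lay near the median of all genes.

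The same 24 regulators moved with the lineage markers to differing degrees. In LSK, 6 of 24 were at least 2-fold lower in Flt3 cells (3.34% of all genes) and 1 of 24 in Pf4 cells (1.62%). In LK, of those with enough UMIs, 5 of 22 were lower in Flt3 cells (3.43% of all genes), 0 of 21 in Pf4 cells (1.59%), 9 of 21 in Car1 cells (5.53%) and 11 of 22 in Elane cells (12.2%). Outside the Pf4 cells of LK, 1 regulator was at least 2-fold higher, in LK Elane cells (3.85% of all genes). In LSK Flt3 cells Ndn (log2 -3.59, -4.87 to -2.51), Mycn (-1.81, -2.08 to -1.54) and Hoxa5 (-1.52, -2.07 to -0.99) were among the lower genes. Gfi1, which directs granulocyte progenitors, was the 1 higher in LK Elane cells (1.64, 1.36 to 1.93), where its paralog Gfi1b was at -4.94 (-5.55 to -4.39). These genes of the marker comparisons were singled out after their values were seen.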

How the data were processed

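The authors deposited UMI counts for each gene in each barcode, unnormalized whole numbers as their values show. Per the submitters' processing notes, Cell Ranger 4.0.0 and mm10 were used. Not given in the sources used here are the annotation release, how cells were called, earlier filters and the use of strand. Coordinates come from a GENCODE annotation of GRCm38 matched by gene identifier, and upstream sequences from RefSeq.

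Values were computed with Python 3.11.15, numpy 2.4.6, scipy 1.17.1, pandas 2.3.3, scanpy 1.11.5, anndata 0.12.19, scikit-learn 1.9.0, leidenalg 0.10.2, igraph 0.11.9 and matplotlib 3.10.9. Of 8968 barcodes, those with at least 200 genes and at most 10% mitochondrial UMIs were kept. Scrublet called 79 doublets (3 in LSK, 3 in LK, 73 in TBM), fewer than the 256 that 0.8% per 1000 barcodes would give, and 8745 cells remained. Free RNA was not corrected. Levels are summed UMIs per 1e6 UMIs (CPM) with exact Poisson intervals, ratios have exact conditional binomial intervals and shares have Clopper-Pearson intervals, all at 95% and for counting error only. Ratios needed at least 20 UMIs over both groups, and past 2-fold counted as higher or lower. Cells were thinned at random to 2000 UMIs for shares across the libraries, and to 5000 for pairs and marker classes. Clusters (Leiden, resolution 1) used 2000 variable genes, 30 principal components and 15 neighbours. A cluster was named from markers only, with at least 3 detected.

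The named genes were the 5 regulators and 4 lineage markers, up to 4 genes of each related list with the largest ratio and at least 50 UMIs, and the 5 genes most like each regulator among those with at least 200 UMIs. The regulators and lists were chosen with earlier results of these data known. The ratio and thinning steps were tested on simulated data. Alternatives covered cell filters, doublets, weighting, scaling, thinning, marker minimums and resolution. Results for a few genes are not reported here.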

Additional observations from a re-analysis of the deposited data

Results flagged for a closer look

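UMIs of the 5 regulators were also present in barcodes that failed the cell filters or were called doublets, and that entered no comparison. In LSK, 24 such barcodes held 28 UMIs of the 5 genes, 12 of Mecom, 11 of Hlf, 4 of Mllt3 and 1 of Tcf15, at a summed level of 331 CPM (220.2 to 478.9). In LK, 99 such barcodes held 7 UMIs, 2 of Mecom and 5 of Mllt3, at 32.3 CPM (12.999 to 66.6). In TBM, 100 such barcodes held 13 UMIs, 12 of Mllt3 and 1 of Hlf, at 20.8 CPM (11.1 to 35.6). Of the 100 TBM barcodes, 73 were called doublets. In kept cells, Mecom, Hlf, Mllt3, Tcf15 and Nkx2-3 were singly at 74.9, 106, 58.3, 26.0 and 33.1 CPM in LSK. They were at 3.80, 11.3, 10.9, 2.32 and 1.84 in LK, and at 0.774, 1.82, 13.4, 0.501 and 0.501 in TBM. The removed barcodes are therefore not read as higher than kept cells. There was no control library, and the 3 counts of UMIs are above the 3 UMIs that a count of 0 allows.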

How the results depend on the processing

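Of 348 recomputed values, 278 stayed within their counting interval (counts of genes within 1.5-fold), 69 moved and 1 reversed. Using all deposited barcodes (35 values), another random seed (15), removing the expected share of doublets (57) or leaving out the cell with most UMIs in each library (5) or marker class (29) moved none. No paired analysis was possible because each gate is 1 library.

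For LSK over LK, equal weight for each cell gave log2 ratios of 3.75 for Mecom, 2.85 for Hlf and 3.49 for Nkx2-3. Size factors gave 3.96 for Mecom, 2.89 for Hlf, 2.08 for Mllt3, 3.15 for Tcf15 and 3.83 for Nkx2-3. Thinned to 1000 UMIs, Mecom, Hlf, Mllt3, Tcf15 and Nkx2-3 were seen in 8.25%, 10.5%, 7.97%, 2.62% and 4.40% of LSK cells. In LK, Mecom, Hlf, Mllt3 and Nkx2-3 were then seen in 0.578%, 1.68%, 1.71% and 0.492%, and in TBM Mllt3 in 0.978% and Nkx2-3 in 0%. Thinned to 2000 UMIs, the factor for Hlf with Mllt3 in LSK was 1.43, and 13.4% of LSK cells had at least 2 genes. In LSK cells without Flt3, an alternative chosen after seeing the data, that share was 46.5%. Division genes in positive over negative LSK cells, thinned to 2000 UMIs, had a ratio of 0.475 for Mllt3 and 0.897 for Nkx2-3.

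In marker classes, the reversal was Mllt3 in LK Car1 cells, at -0.16 with equal weight for each cell. With stricter marker counts it was 1.29, and in cells with that marker alone 1.04; the latter setting was also chosen after seeing the data. Stricter counts gave -1.20 for Mecom, -0.77 for Hlf, -2.65 for Mllt3 and -3.52 for Tcf15 in LSK Flt3 cells, and -0.82 for Hlf in LK Flt3 cells. In LK Pf4 cells they gave -0.87 for Mecom, -1.53 for Hlf, 2.05 for Tcf15 and -1.60 for Nkx2-3, and in LK Car1 cells -4.51 for Hlf. Among these, Mecom rests on 4 UMIs, Nkx2-3 on 2 and Hlf in Car1 cells on 4. With the marker alone, Mllt3 was at -0.14 in LSK Pf4 cells and Hlf at -0.029 in LK Flt3 cells. In LK Pf4 cells alone, Mecom was at 1.25, Hlf at -0.033, Mllt3 at 0.68, Tcf15 at 2.09 and Nkx2-3 at 0.55. Equal weight gave -3.90 for Mecom and -2.58 for Mllt3 in LK Elane cells.

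The stem-like share of UMIs at resolution 2 was 31.3% (Mecom), 24.7% (Hlf), 60.4% (Mllt3), 44.2% (Tcf15) and 44.4% (Nkx2-3) in LSK, and 9.47%, 6.03%, 12.9%, 8.62% and 25.0% in LK. At resolution 0.5 it was 48.4% (Mecom), 43.1% (Hlf) and 58.6% (Tcf15) in LK. Size factors left 0 elongation, 0 bHLH and 0 Nkx2 or Groucho genes 2-fold higher, and put 1 regulator and 1 stem surface gene 2-fold lower. A minimum of 100 UMIs left 0 Mecom relatives or corepressors 2-fold higher. The causes were not tested, except that fewer cells or genes enter the stricter settings. Depth limits the TBM values of Mecom, Tcf15 and Nkx2-3, which rest on 17, 11 and 11 UMIs.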
